A study of Mus musculus with 3 samples.

Results

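A set of 698 genes was chosen from 24318 identified genes for a high H3K36me3 signal at E15.5 in one window of the gene, the deposited PR column, while signal over the gene body stayed level. H3K36me3, trimethylated lysine on histone H3, was measured by CUT&Tag, in which an antibody brings a transposase to the mark so that the DNA beside it is cut and tagged for sequencing. The cells were pancreatic epithelial cells of wild-type C57BL/6 mouse embryos, stained for EpCAM, a surface protein of epithelia, and sorted by flow cytometry at day E11.5, E13.5 or E15.5. Each stage is 1 library, 3 in all, no library without the antibody was analysed here, and the labels do not say how many embryos a library holds. No difference below could therefore be tested, and the spread between embryos of a stage is not known.

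H3K36me3 is laid down by the methyltransferase SETD2, which travels with elongating RNA polymerase II. The mark therefore usually covers the bodies of transcribed genes, is low around their start sites and grows towards their far ends, and it is read by proteins that guide DNA methylation and splicing. Over the stages sampled here the pancreatic epithelium passes from a bud of largely multipotent progenitors to a branched tree in which acinar, endocrine and ductal cells are set apart.

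The members were chosen by measured values, in deposited units of mean coverage per position. The gene body column, GB, had to lie from 0.001 to below 0.008 at E11.5, and its value at E15.5 had to be 0.67 to 1.5 times that at E11.5. PR had to be at most 0.0075 at E11.5 and E13.5 and at least 0.015 at E15.5. Of the 24318 identified genes, 13558 met the GB range, 4457 of those were level, 2692 of those were low in PR at both earlier stages, and 698 of those were high at E15.5, which is 2.87% of identified genes. PR and GB at E11.5 and E15.5, and PR at E13.5, are thus what the choice used, and their values are given as description only.

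The deposited identifiers could not be paired with gene symbols, since 0 of them matched the reference table, so the known genes among the members are not named. For the same reason the epithelial label of the libraries could not be checked against Epcam or other markers, and the share of other cell types in them was not tested. The members share windows in a few cases. 14 members had PR and SE values equal to those of another member in every library, which leaves 691 distinct windows, and 80 members had PR values equal to those of some other identified gene.

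Little coverage lies behind each value. PR is a mean over 6000 positions, and its sums were whole multiples of a single step per library (0.161885, 0.167429 and 0.162919 in stage order). In that measure the PR minimum of 0.015 equals 552 positions covered by 1 step at E15.5, and the maximum of 0.0075 equals 278 positions at E11.5 and 269 at E13.5. The median member had 96.0, 90.01 and 852 such positions in its PR window, in stage order. How many sequenced fragments these positions stand for is unknown, because fragment length and the authors' scaling are not given in the sources used here.

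Where the windows lie was worked out from sums of signal, over all identified genes with a recovered GB length. A window that lies inside another can never hold the larger sum. In the 1648 genes with a GB length of at most 3000 positions, the GB sum exceeded the PR sum in 1.27, 1.03 and 0.789% in stage order. In the 2255 genes above 3000 and up to 6000 positions it did so in 34.0, 32.5 and 23.3%. The SE column, a mean over 12000 positions that contain the PR window, gave the same picture at the doubled length, with the GB sum above the SE sum in at most 0.887% of genes up to 6000 positions and in 32.4, 33.4 and 24.7% of genes above 6000 and up to 12000 positions. With these few exceptions, gene bodies were held inside PR up to 3000 positions and inside SE up to 6000. That is the pattern of windows that reach 3000 and 6000 positions into the gene from the same end, with as many positions beyond that end. The headers do not say which end it is.

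**Figure D1:**
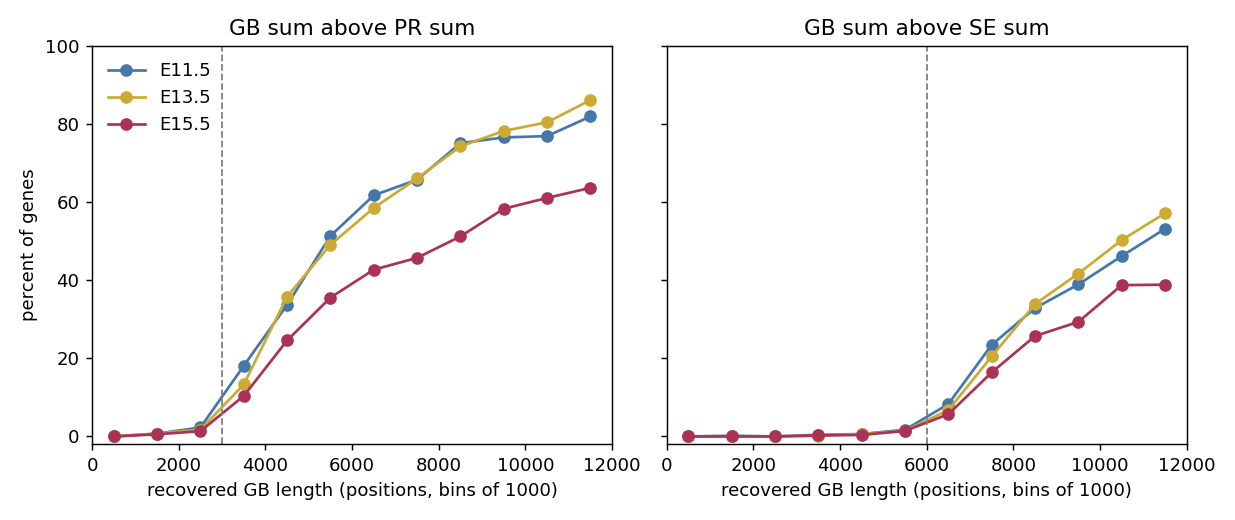
Percent of identified genes whose summed GB signal is larger than their summed PR signal (left) or SE signal (right), by recovered GB length in bins of 1000 positions, with 1 line per library. The share is near 0 up to 3000 positions for PR and up to 6000 for SE (dashed lines) and climbs beyond them in all 3 libraries.

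PR signal of the members was low and alike at the earlier stages and high at E15.5, as the choice required. At E11.5 the lowest member was at 0, the median at 0.00259 and the highest at 0.0075. At E13.5 the corresponding values were 0, 0.00251 and 0.00748, and at E15.5 they were 0.015043, 0.0231 and 0.113. PR was at 0 in 30 members at E11.5, in 84 at E13.5 and in 8 at both. In the 690 members above 0 at an earlier stage, PR at E15.5 was a median of 6.46 times the higher of the earlier values, and in 210 of the 698 it was at least 10 times that value. At E15.5, 204 members reached 0.03 and 21 reached 0.06, so most members lay within a factor of 2 of the minimum.

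There was no gap at the PR minimum. The 3 members nearest above it each had PR of 0.015043 at E15.5, and the 3 genes nearest below it that met all other limits each had 0.014988. Their GB at E15.5 was 0.00391, 0.00182 and 0.00182 inside the limit and 0.00243, 0.00428 and 0.00687 outside it. Between 0.0135 and 0.015 lay 86 genes that met the other limits, and between 0.015 and 0.0165 lay 85. The set is therefore the upper part of a continuous range. Among all identified genes with low PR at both earlier stages, 23.0% reached 0.015 at E15.5 (3117 of 13526), and among those with a level gene body in range 25.9% did.

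The member with the highest PR at E15.5 was ENSMUSG00000024073, with PR of 0.00394, 0.00112 and 0.113 in stage order. Its GB, over a recovered length of 175062 positions, was 0.00467, 0.00364 and 0.00653, and its SE outside PR was 0.00140, 0.00195 and 0.0000817. Nearly all signal within the SE window of that gene at E15.5 thus lay inside PR. ENSMUSG00000025026 came next, with PR of 0.00745, 0.00368 and 0.0892, GB of 0.00576, 0.00395 and 0.00733 over 35628 positions, and SE outside PR of 0.00472, 0.000893 and 0.0112. In that gene the positions around PR were also higher at E15.5 than at E11.5, though by far less than PR itself.

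**Figure D2:**
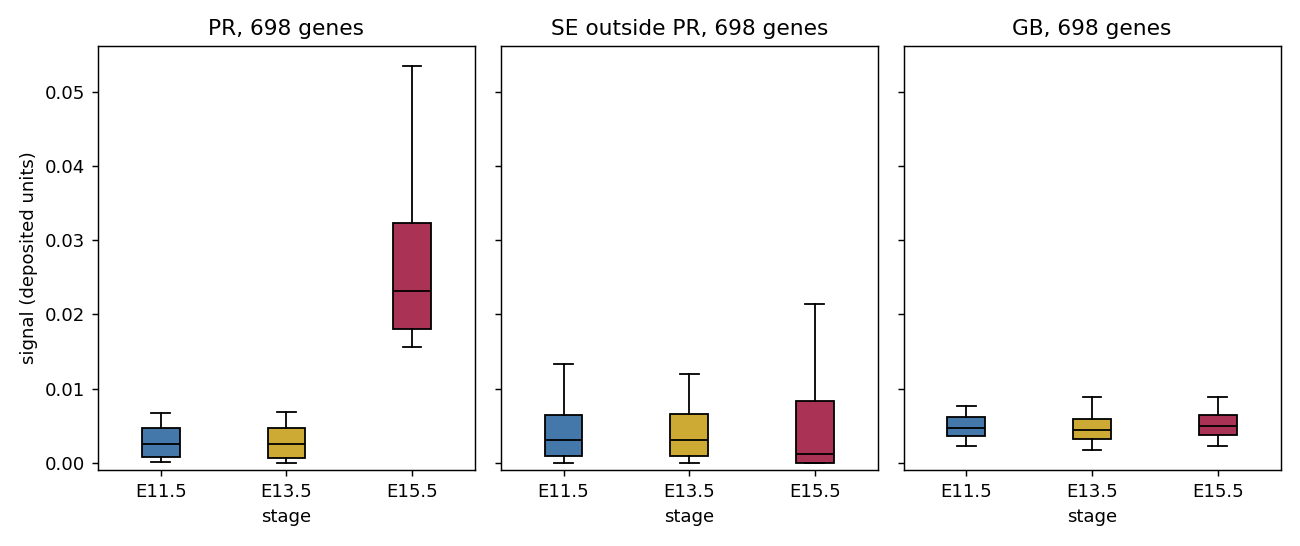
Signal of the 698 members by stage in PR, in SE outside PR and in GB, in deposited units, on a shared axis. Boxes span the 25th to 75th percentile with the median as a line, and whiskers the 5th to 95th. PR is high at E15.5 by choice (median 0.0231), while the medians of SE outside PR (0.00302, 0.00307 and 0.00117) and of GB (0.00472, 0.00444 and 0.00496) stay near or below their earlier levels.

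The signal around PR, in the 6000 positions of SE outside it, did not share the gain in most members. It was computed as 2 times SE minus PR, and the choice of members did not set it, although it comes from the same libraries. Its median over members was 0.00302, 0.00307 and 0.00117 in stage order, and its mean was 0.00444, 0.00425 and 0.00526. The median was thus lowest and the mean highest at E15.5. This split came with more members at 0 and more at high values. The number of members at 0 around PR was 47, 71 and 221 in stage order, or 6.73, 10.2 and 31.7%. It was at least 0.015, the minimum asked of PR, in 29, 18 and 81 members, which is 4.15, 2.58 and 11.6%.

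The libraries as a whole had the same spread. Over all identified genes SE outside PR was at 0 in 8.70, 11.7 and 32.1% in stage order, and in the 1994 genes that met every limit but had PR below 0.015 at E15.5 it was at 0 in 9.38, 14.4 and 36.8%. It was at least 0.015 in 6.87, 5.70 and 15.1% of all identified genes and in 2.21, 2.51 and 7.32% of the 1994 genes. Their medians were 0.00243, 0.00279 and 0.000598. The wider spread around PR at E15.5 was therefore also present in these 1994 genes below the PR minimum. The median of the members was above theirs at each stage. Below they are called genes without the gain, which means only that PR at E15.5 stayed under 0.015. Many of them did rise in PR. Of the 1125 above a floor in PR, 555 were at least 2-fold higher at E15.5 than at E11.5, 49.3%. At least 2-fold lower were 279, 24.8%. They are thus no set of genes with unchanged PR.

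Pair by pair, members with a clear difference around PR went either way. A gene entered this count where the higher of the 2 libraries reached the median over identified genes and libraries, 0.00302. The log2 ratio was taken after adding 0.001. Against E11.5, SE outside PR at E15.5 was at least 2-fold higher in 177 of 480 members, 36.9%, beside 33.9% of all identified genes above that level. It was at least 2-fold lower in 195, 40.6%, beside 40.9%. Against E13.5 it was higher in 176 of 494 members, 35.6%, beside 34.3%, and lower in 216, 43.7%, beside 41.1%. The members' shares lay near those of all identified genes. In the 1994 genes without the gain, 31.3% were higher and 45.8% lower against E11.5, and 30.9 and 47.6% against E13.5. Between E13.5 and E11.5, where no PR gain was asked for, 157 of 512 members were higher and 157 lower, 30.7% each, beside 30.3% and 30.9%.

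The median log2 ratio of SE outside PR over all members was -0.28 for E15.5 against E11.5, -0.40 for E15.5 against E13.5 and 0.00 for E13.5 against E11.5. The corresponding medians over all identified genes were -0.22, -0.21 and 0.00. In the 406 members above 0 at every stage the ratios to E11.5 and E13.5 turned to 0.27 and 0.30, and in the 14218 identified genes above 0 at every stage they were 0.27 and 0.26. In the 1011 genes without the gain that were above 0 at every stage, they were 0.20 and 0.00. That filter leaves out the genes that went to 0 at E15.5, so these values are no measure of the direction over all members. With the floor set 5 times higher, SE outside PR at E15.5 was at least 2-fold higher than at E11.5 in 67.6% of 105 members and lower in 21.0%, beside 58.3 and 18.7% of all identified genes above that floor. Against E13.5 it was higher in 70.8% of 96 members and lower in 14.6%, beside 62.6 and 15.0%. In the genes without the gain the shares at that floor were 62.0 and 13.4% against E11.5, and 64.2 and 19.8% against E13.5. In all these sets alike, higher values thus outnumbered lower ones at that floor.

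At E15.5 the signal of the members was concentrated in PR. The PR window, which makes up 50% of the SE window, held a median of 42.3, 42.9 and 95.2% of a member's SE signal in stage order. In 671 members, 96.1%, PR held more than the positions around it at E15.5, where 291 members did so at E11.5 and 283 did at E13.5. In all identified genes with SE above 0 the share was 51.6, 50.2 and 63.8% in stage order, and in the 1994 genes without the gain 43.6, 40.6 and 57.3%. The choice set PR at all 3 stages, so this difference is no finding about the members. The median share over all identified genes, members included, was 52.0, 50.3 and 71.5%, and over the 1994 genes without the gain it was 42.7, 40.5 and 62.7%. Over all identified genes the E15.5 library thus held more of its SE signal inside PR. The PR limits also chose the 1994 genes, low at both earlier stages and below 0.015 at E15.5. Their shares are therefore description only.

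Across members, PR and the signal around it at E15.5 were nearly unrelated, with a Spearman correlation of 0.084 over 698 genes in 1 library, whose values share that library's depth. Members with SE outside PR at 0 had a median PR of 0.0215 at E15.5, and those with SE outside PR of at least 0.015 had 0.0256. Their GB at E11.5 was 0.00454 and 0.00541, and their median GB lengths were 69755 and 64525 positions. Members above 0 and at most 0.0075 around PR had median PR of 0.0240 and GB at E11.5 of 0.00464. Those above 0.0075 and below 0.015 had 0.0227 and 0.00516. Median PR was thus not ordered by the signal around it. The choice set limits on PR and GB, so these medians are description only. Over the 4457 level bodies the correlation of PR with the signal around it at E15.5 was 0.092. SE outside PR was also nearly unrelated between stages, at 0.080 for E11.5 with E13.5 and 0.068 for E11.5 with E15.5.

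**Figure D3:**
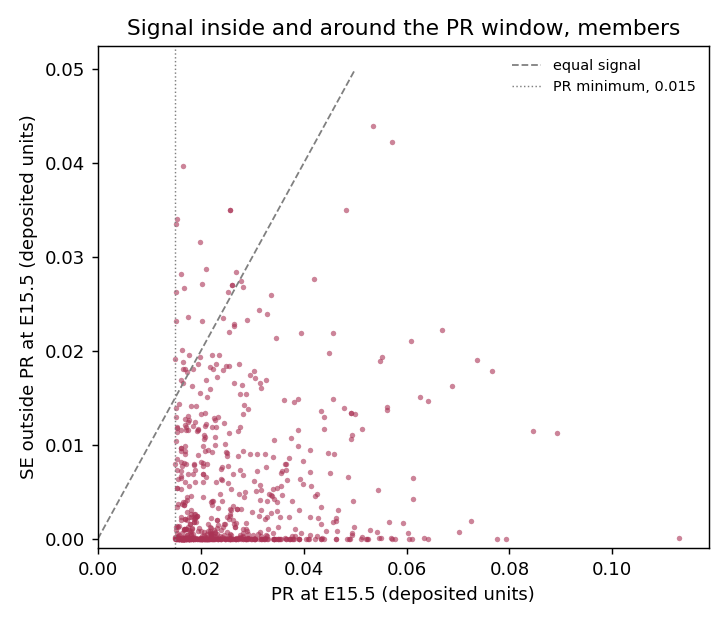
PR against SE outside PR at E15.5 for each of the 698 members, in deposited units. The dashed line marks equal signal and the dotted line the PR minimum of 0.015. Points lie below the dashed line in 671 members, and 221 sit at 0 on the vertical axis.

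The lowest values around PR were found beside high earlier ones in some members. ENSMUSG00000026112 had SE outside PR of 0.0238, 0.0183 and 0 in stage order, with PR of 0.00464, 0.000558 and 0.0323 and a GB length of 13019 positions. ENSMUSG00000034112 had 0.0228, 0.000670 and 0 around PR, with PR of 0.00189, 0.00290 and 0.0163 and a GB length of 57710 positions. In both genes most of the SE signal at E11.5 lay around PR and all of it at E15.5 lay inside PR. GB was 0.00495, 0.00550 and 0.00453 in the first gene and 0.00744, 0.00625 and 0.00845 in the second.

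GB at E13.5 is the gene body value that the choice did not use. The median member had GB of 0.00472, 0.00444 and 0.00496 in stage order. The ratio of E13.5 over E11.5 had a median of 0.976, with 10% of members below 0.547 and 10% above 1.61. It lay between 0.67 and 1.5 in 471 members, 67.5%, below in 135 and above in 92. The same share was 63.7% in the 1994 genes without the PR gain and 42.1% in all identified genes above 0 at E11.5. GB at least 2-fold higher at E13.5 was found in 14 of 532 members above the GB median, 2.63% beside 17.2% of all identified genes, and at least 2-fold lower in 24, 4.51% beside 19.4%. In the 1994 genes without the gain these shares were 4.67 and 7.31%, and in all 4457 level bodies 5.46 and 5.85%, so low shares were common to level bodies. From E13.5 to E15.5 the counts were 42 higher and 13 lower of 549 members, 7.65% and 2.37%, beside 27.6% and 22.1%. In the 1994 genes without the gain these shares were 8.77 and 7.22%, and in all 4457 level bodies 7.13 and 7.04%. The members' share of higher genes lay between those of these sets, and their share of lower genes was below both. Whether the choice for a level body, the long bodies or the positions that GB shares with PR, both below, play a part was not tested. Across members GB correlated between E11.5 and E13.5 with a Spearman coefficient of 0.449 over 698 genes, which share the same window lengths.

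GB and PR share positions, up to 3000 by the pattern above, so a level GB does not give the level of the body outside PR. The summed PR signal equalled a median of 4.21% of the summed GB signal of a member at E11.5, 4.49% at the middle stage and 52.5% at E15.5. How much of PR falls inside the body is unknown, so the body outside PR was given only as a range. In the 693 members with bodies over 6000 positions its median signal lay between 0.00473 and 0.00508 at E11.5, depending on whether all or none of PR falls in the body, and between 0.00443 and 0.00475 at E13.5. At E15.5 it lay between 0.00212 and 0.00538. Among all 698 members and under every division of PR, the body outside PR was lower at E15.5 than at E11.5 in 211 members, 30.2%, and higher in 64, 9.17%. In the other 423 it cannot be decided from these columns. The choice set PR and GB at both of these stages, so the balance of the 2 counts is no finding about the members. At E13.5 against E11.5, where PR was low at both stages, the body outside PR was lower in 319 members and higher in 275. No share over other genes is given beside these counts, so their balance is not shown to be particular to the members.

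Part of the PR signal at E15.5 lay beyond the gene body, as far as the recovered lengths hold (91.6% of them were exact in simulated data). The shortest fitting length was taken, so a wrong length tends to be too short and its GB sum too small. Some of the genes counted next may be such errors. In 158 members the PR sum was larger than the GB sum at E15.5, as it was in 5 members at E11.5 and in 10 at E13.5. In those 158, at least a median of 35.3% of the PR signal lay outside the body window, and in 1 of them at least 95.7%. Between E11.5 and E15.5 the PR sum of the members was higher by a median of 126 and the GB sum by 11.525, in summed deposited units. In 77 of 698 members the difference in GB sum was at least as large as that in PR sum. The choice set PR at every stage and GB at E11.5 and E15.5. The contrasts between stages in these counts and sums are therefore no finding about the members, and no share over other genes is given beside them.

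Members had long gene bodies. A GB length was recovered for all 698, with a median of 61694 positions and a range of 1811 to 891602, against a median of 20547.5 in the 20608 identified genes with a recovered length. Bodies of at least 12000 positions made up 95.6% of members and 65.0% of all genes, and those of at least 50000 made up 59.0 and 26.8%. Bodies were also long in genes that stayed below the PR minimum. All 4457 level bodies had a median of 54916 and the 1994 genes without the gain 55925. Between members and the latter, the lengths differed mainly at the ends. The lowest 10% lay below 18547.6 positions in members and below 13062.6 in the 1994 genes, and the highest 10% above 219893 and 332192.

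Among level bodies with low earlier PR, the share that reached the PR minimum was largest at middle lengths. It was 14.8% under 12000 positions (31 of 210), 34.1% from 50000 to below 100000 (199 of 584) and 19.1% at 200000 or more (85 of 445). PR at E15.5 differed little by length, with medians of 0.0187, 0.0243 and 0.0229 in those 3 classes. SE outside PR was at 0 at E15.5 in 42.4% of members of 200000 positions or more and in 16.1% of the 31 under 12000. Over all lengths it was at 0 in 31.7% of members, 32.1% of all identified genes and 36.8% of the 1994 genes without the gain. The shares by length are not given for other genes, so this difference is not shown to be particular to the members.

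**Figure D4:**
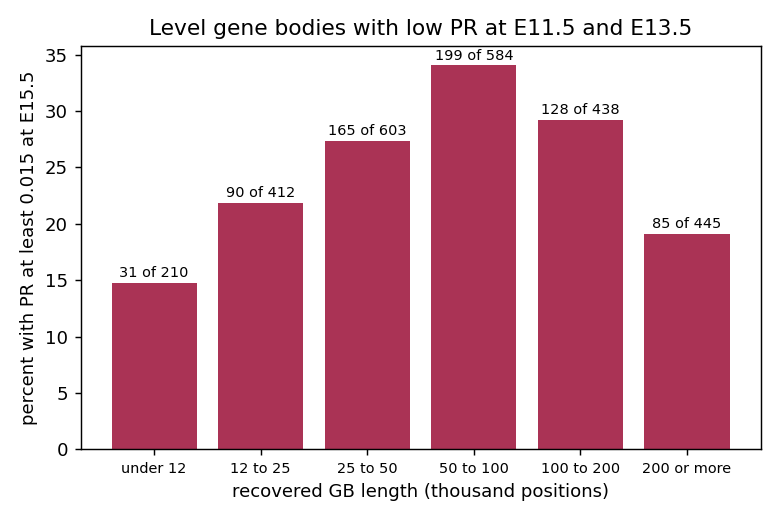
Percent of genes with PR of at least 0.015 at E15.5 among the 2692 with a level gene body and low PR at E11.5 and E13.5, by recovered GB length, with the number of members and genes over each bar. The share is largest, 34.1%, from 50000 to below 100000 positions and lowest, 14.8%, under 12000.

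The same PR limits were applied with each stage in turn as the one of high PR, on the same 4457 level bodies. High PR at E11.5 with low PR at the other stages was met by 55 genes, high PR at E13.5 by 49 and high PR at E15.5 by 698. The highest PR among them was 0.0314, 0.0291 and 0.113. This order followed the PR column as a whole, since PR of at least 0.015 was found in 7.27, 5.23 and 29.4% of all identified genes in stage order. Quantile normalization was applied to PR and to GB, and gives each of them the same distribution in every library by construction. After it, with level bodies chosen anew from the normalized GB, the counts were 208, 228 and 231. Of those 231 genes, 180 were among the 698 members, or 77.9% of the 231 and 25.8% of the 698. The excess of genes with a PR gain at E15.5 was thus present in the deposited values. It was absent once the 3 libraries were given one distribution of PR and one of GB. The parts of PR and of GB in that change were not tested separately. SE outside PR was at 0 at the stage of high PR in 9.09% of the 55 genes, 10.2% of the 49 and 31.7% of the 698.

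**Figure D5:**
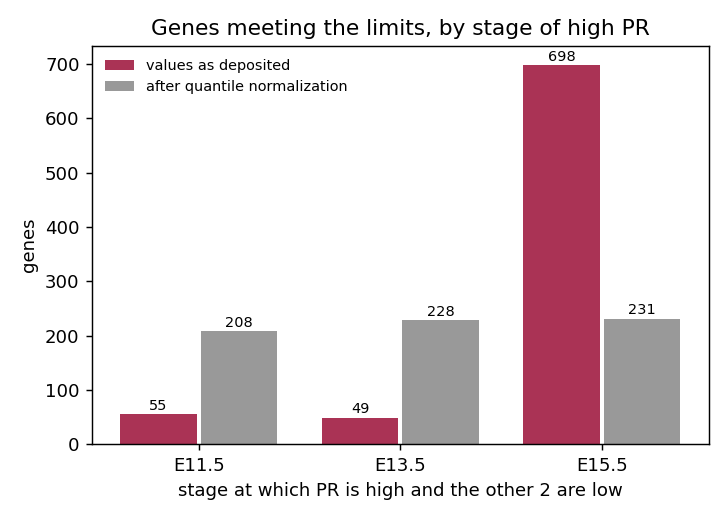
Number of genes with a level gene body whose PR is at least 0.015 at the stage shown and at most 0.0075 at the others, in values as deposited (red) and after quantile normalization of PR and GB (grey). Level bodies were chosen anew from the normalized GB. The deposited values give 55, 49 and 698 genes and the normalized values 208, 228 and 231.

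Members were also set beside genes that reached the same PR minimum at E15.5 but were not low before. There were 564 such level bodies, with PR above 0.0075 at E11.5 or E13.5. Their median PR was 0.00869, 0.00809 and 0.0232 in stage order, against 0.00259, 0.00251 and 0.0231 in members. Their SE outside PR had a median of 0.00355, 0.00363 and 0.00204 in stage order, against 0.00302, 0.00307 and 0.00117 in members. Their median around PR was thus the higher one at each stage and not only at E15.5. SE outside PR was at 0 at E15.5 in 28.0% of them and in 31.7% of members.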

How the data were processed

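H3K36me3 CUT&Tag signal was analysed in 3 libraries, 1 per stage. The submitters' processing notes list the aligner Bowtie2 2.4.2 and the mouse build mm10. The labels give a mean of 20000000 reads per sample, and the design text names a slightly different day for the middle stage, where the sample labels were followed. The authors deposited coverage signal per gene, and the file headers name its columns PR, GB and SE. The window definitions, filters and scaling are not given in the sources used here. Of 25493 rows, 1175 had no identifier and were left out (9 of them met the limits).

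Steps were found as the value of which PR times 6000 is a whole multiple, at a tolerance of 0.05 steps (100% of values with sums below 800). GB lengths were the shortest number of positions, from 50 up, at which all libraries above 0 gave sums with 2 decimals and whole steps. On simulated data 91.6% of 4457 lengths were recovered exactly. Planted 4-fold differences were called in 100% of 100 genes per direction. They were exact multiples, without noise, of values at or above the floor. That outcome was therefore certain and does not measure how well differences between libraries are found. Sums within 0.02 were taken as equal. No test was possible with 1 library per stage. Members, gene lists and rules were chosen with earlier results of these data known. The 31 lists, the naming of list members and the promoter features fixed in the design could not be used without symbols, so 2 identifiers per direction are printed, those with the highest PR at E15.5 and with the largest fall in SE outside PR. The window geometry, the ranges for the body outside PR and the quantile counts for the other stages were added after seeing the data. Python 3.11.15, pandas 2.3.3 and numpy 2.4.6 were used.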

Additional observations from a re-analysis of the deposited data

How the results depend on the processing

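For 9 results, 53 values were recomputed, of which 40 lay within a factor of 1.5 of the reported count, share or unlogged ratio, 11 moved further and 2 changed sign. The 698 members became 454 with a PR minimum of 0.020, 437 with an earlier PR maximum of 0.005, 410 with narrower limits on the gene body ratio (0.8 and its inverse), 1081 with wider ones (0.5 and 2) and 231 after quantile normalization. Dividing each library by its median GB gave 704 genes, of which 531 were members. The median log2 ratio of SE outside PR, -0.28 and -0.40 for E15.5 against E11.5 and E13.5, was -0.62 and -0.74 with a pseudocount of 0.0001, -0.11 and -0.14 with 0.005, and 0.27 and 0.30 in members above 0 at all stages, a filter that leaves out those at 0 at E15.5. With the floor 5 times higher, 67.6 and 70.8% of members were at least 2-fold higher than at E11.5 and E13.5 and 21.0 and 14.6% lower, beside 58.3 and 62.6% higher and 18.7 and 15.0% lower of all identified genes. A PR minimum of 0.012 gave 116 genes for E11.5 and 106 for E13.5 as the stage of high PR, and 0.020 gave 11 and 13. The limits change these counts by construction, and the cause of the other changes was not tested. The alternatives with long bodies and with shared windows counted once were chosen after seeing the data. No paired analysis was possible because the 3 libraries are of different stages. Scaled counts for gene lists were not run for lack of symbols.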

Other observations

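Sums over the SE window were even multiples of the step in 93.1, 92.5 and 96.0% of rows above 0 in the E11.5, E13.5 and E15.5 libraries.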
